A study of Mus musculus with 4 samples.

Results

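The genes described here are the orphan and adhesion G protein-coupled receptors (GPCRs) of Beko cells, a mouse progenitor T-cell line, taken as every row of the count table whose symbol begins with Gpr and a number or with Adgr, a letter and a number. The rule found 101 of 24391 genes, 26 of them adhesion receptors (Adgr) and 75 with a Gpr name. RNA-Seq was measured in 4 libraries. In 2 libraries the cells had been kept for 48 h in the γ-secretase inhibitor (GSI) DAPT, at 10 mg/ml per the labels and 10 μg/ml per the methods, and in the other 2 (washout) the same 48 h of GSI was followed by removal of the inhibitor and 24 h of further culture. No library of cells washed and cultured alike without prior GSI was part of the comparison, so the return of Notch signaling and the wash with its longer culture cannot be told apart.

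GPCRs are receptors of the cell surface that pass the binding of a ligand to heterotrimeric G proteins inside the cell. Orphan receptors are those named before, or still without, an accepted ligand. Adhesion receptors carry long extracellular parts that bind matrix proteins or other cells, and many cut themselves at a site close to the membrane, which leaves a tethered peptide that can activate the receptor. In T-cell progenitors γ-secretase releases the intracellular domain of NOTCH1, which binds the DNA-binding protein RBPJ, so that GSI holds Notch target genes down and its washout lets them return.

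Total counts were 29671401 and 13716199 in the GSI libraries and 36364200 and 14451995 in the washout libraries. Of 8 Notch target genes used as a check, 7 were called higher upon washout (87.5%, against 7.74% of all genes tested), while Notch3 was not. The 8 genes were chosen with earlier results of these data known. All 16 T-cell progenitor markers were above the floor of 3 counts in some library. Over all 12266 genes tested, 950 were called higher and 1437 lower, and scaling to total counts alone turned this into 586 higher and 1963 lower and moved the median log2 fold change of all genes from -0.0096 to -0.21. A gene was called at an adjusted p under 0.05 in edgeR's quasi-likelihood test (Benjamini-Hochberg) with a log2 fold change above 1 or below -1, and fold changes are washout against GSI throughout. Nothing in the labels says that the replicates came from separate cultures, so p-values measure the spread between these libraries only. In bulk RNA, fewer cells of a type and less RNA per cell cannot be told apart.

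Many of these genes had few or 0 counts in Beko cells. Of the 101 genes, 31 had 0 counts in all 4 libraries and 21 more never exceeded 3 counts, which left 49 above the floor in at least 1 library. The floor of 3 counts was worth between 0.0881 and 0.223 CPM, the counts of a gene scaled to a common library size, so a gene under it may still be transcribed at a low level. In the GSI libraries 46 genes were above the floor and in the washout libraries 45, with 4 above it only in GSI and 3 only in washout, and 33 were above it in every library. Enough counts for the test were found for 35 genes, and 14 above the floor were not tested. The tested genes were expressed at low levels, with a median average log2 CPM of 1.06 against 5.09 over all genes tested.

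**Figure D1:**
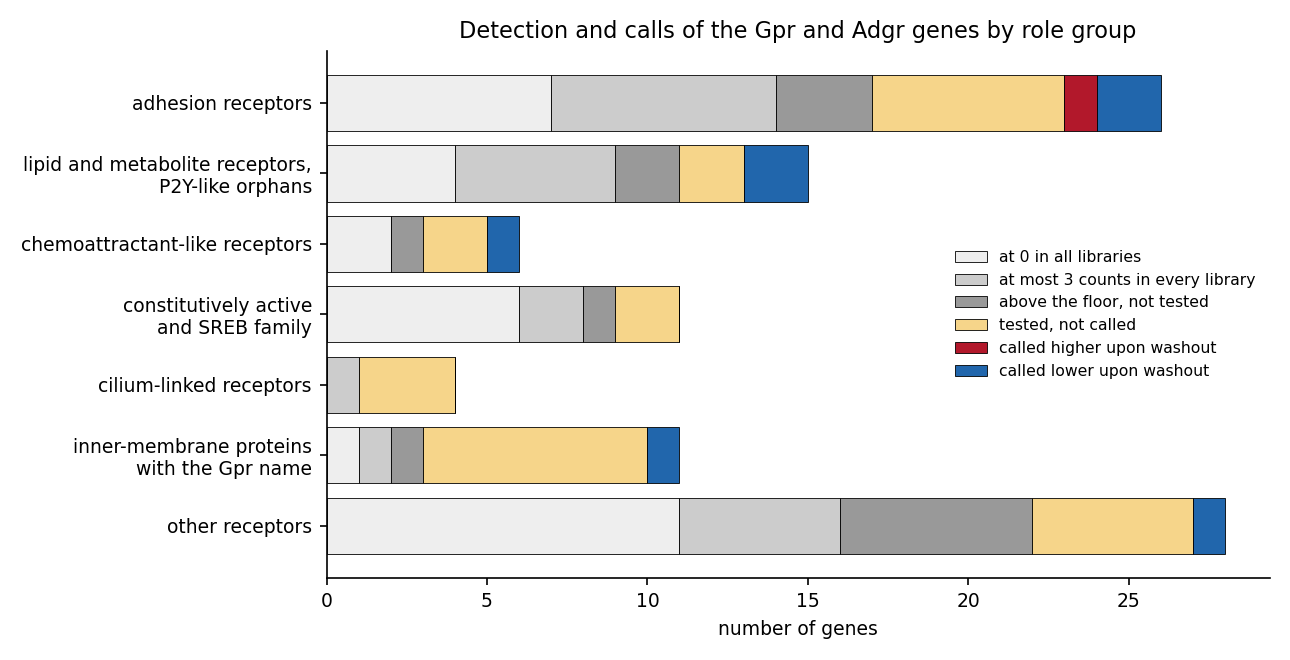
Number of genes in each role group (horizontal bars, number of genes on the x axis), split by colour into those at 0 in all 4 libraries, at most 3 counts in every library, above 3 counts but not tested, tested and not called, called higher and called lower upon washout. The proton-sensing family and the class C orphan receptors are drawn within the bar of other receptors. Of the 26 adhesion receptors 7 were at 0 and 7 more under the floor. Among the 11 members grouped as proteins of inner membranes 8 were tested, and the 1 call for a higher level lies among the adhesion receptors.

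Upon washout 1 of the 35 tested genes was called higher, Adgrg1, and 7 were called lower, among them Adgre5, Adgrg7, Gpr25, Gpr155, Gpr171 and Gpr174. The single rise was 2.86% of the tested members, against 7.74% of all genes tested, and the 7 falls were 20%, against 11.7%. With the adjusted p alone, 2 members were higher (5.71%, against 27.0% of all genes tested) and 13 lower (37.1%, against 25.4%). Both washout libraries lay below both GSI libraries in CPM for 20 tested members (57.1%, against 39.1% of all genes tested) and above them for 5 (14.3%, against 38.2%), while 10 overlapped. The log2 fold change was below 0 in 27 of 35 members, or 77.1%, against 50.5% of all genes tested, and its median was -0.44, against -0.0096. Gpr25 and Adgrg7 had at most 10 counts in any washout library, so they could enter the test through the GSI libraries alone. With at least 10 counts required in every library, 2 members were called lower, beside 1131 of the 11293 genes then tested. The shares of members and of all genes are therefore not compared at like counts.

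**Figure D2:**
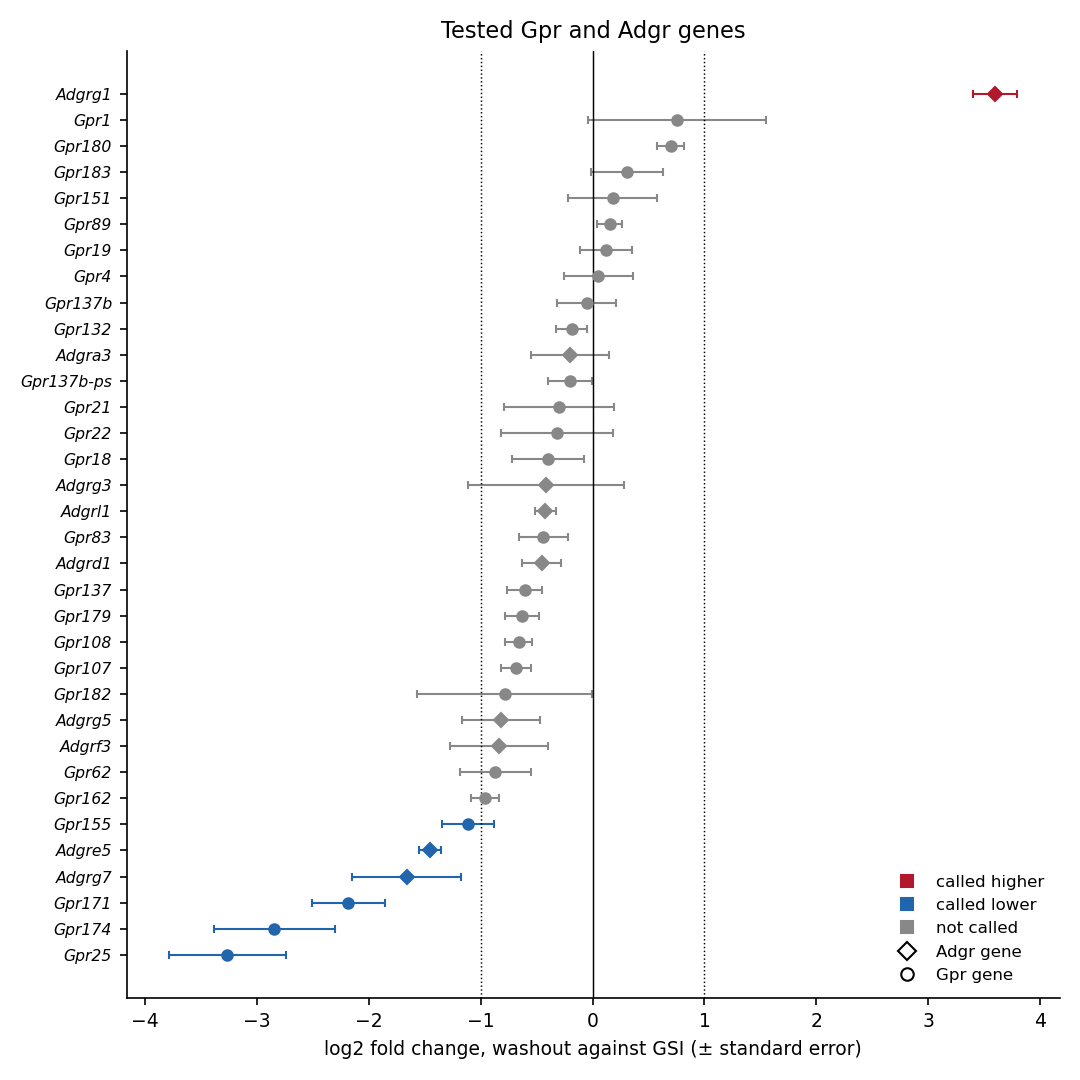
Log2 fold change of washout against GSI (x axis) with its standard error (bars) for 34 of the 35 tested genes, ordered by value, with diamonds for Adgr genes, circles for Gpr genes, red for the gene called higher, blue for genes called lower and grey for the others. Dotted lines mark a log2 fold change of 1 in either direction. Adgrg1 stands alone on the right at 3.60, and the lowest value is that of Gpr25 at -3.26.

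Adgrg1 (Gpr56), an adhesion receptor for type III collagen that is also found on cytotoxic lymphocytes and blood stem cells, lies on chromosome 8 of mm9 from 97508503 to 97538090 on the plus strand. Its level was 4.34 and 6.58 CPM in the GSI libraries and 65.9 and 61.9 CPM in the washout libraries. The conditions were far apart, and as a ratio the washout libraries were closer to each other than the GSI libraries were. The log2 fold change was 3.60 ± 0.20 (SE, n = 2 libraries per condition), a 12.1-fold higher level, with an adjusted p of 0.000294 in edgeR's quasi-likelihood test.

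For the called genes with an entry among the RefSeq promoters (GRCm38.p6, 250 bases before to 50 after the start), those of Adgrg1, which rose, and of Gpr25 and Gpr174, which fell, are printed 5′ to 3′ in the direction of the gene, because they set the regions of opposite response side by side. Capitals mark matches to TGAGAA on either strand, a variant of TGGGAA, the motif known to be bound by RBPJ. Adgrg1 has 2 starts, at chr8:94976859-94977158 and chr8:94984149-94984448 on the plus strand. The promoter of Gpr25 is chr1:136260877-136261176 on the minus strand, and that of Gpr174 is chrX:107284096-107284395 on the plus strand.
Adgrg1, first start: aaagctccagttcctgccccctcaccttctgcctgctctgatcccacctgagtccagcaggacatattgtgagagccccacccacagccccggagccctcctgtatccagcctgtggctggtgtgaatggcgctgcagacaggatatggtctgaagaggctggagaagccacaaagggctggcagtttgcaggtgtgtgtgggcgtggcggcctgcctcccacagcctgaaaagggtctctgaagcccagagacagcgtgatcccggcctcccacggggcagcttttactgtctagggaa
Adgrg1, second start: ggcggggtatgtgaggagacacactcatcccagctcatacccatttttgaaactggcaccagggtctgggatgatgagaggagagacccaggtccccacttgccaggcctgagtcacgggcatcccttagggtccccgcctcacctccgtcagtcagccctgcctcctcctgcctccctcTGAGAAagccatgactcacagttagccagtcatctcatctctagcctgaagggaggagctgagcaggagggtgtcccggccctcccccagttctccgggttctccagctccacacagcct
Gpr25: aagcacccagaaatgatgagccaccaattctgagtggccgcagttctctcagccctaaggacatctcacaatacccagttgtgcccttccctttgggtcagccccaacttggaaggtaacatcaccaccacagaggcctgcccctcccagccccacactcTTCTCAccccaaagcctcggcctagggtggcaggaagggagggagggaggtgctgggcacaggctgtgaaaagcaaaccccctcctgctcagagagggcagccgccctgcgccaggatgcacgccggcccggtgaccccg
Gpr174: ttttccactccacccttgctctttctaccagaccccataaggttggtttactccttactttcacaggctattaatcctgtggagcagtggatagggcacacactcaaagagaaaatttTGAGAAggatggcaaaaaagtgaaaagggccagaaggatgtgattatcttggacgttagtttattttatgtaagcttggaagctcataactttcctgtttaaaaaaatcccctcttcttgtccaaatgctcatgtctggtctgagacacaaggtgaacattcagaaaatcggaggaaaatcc

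TGGGAA on either strand was found in 0 of the 6 promoters of called genes, and in 28.1% of the 32 promoters of tested members, 22.0% of the 91 promoters of all members with an entry and 25.6% of all 32851 promoters. TGAGAA, which does not overlap with it, was in 4 of the 6, that is in the second start of Adgrg1 and in the promoters of Gpr25, Gpr174 and Adgrg7. It was in 21.9% of the 32 promoters of tested members, 18.7% of the 91 of all members and 20.2% of all promoters. The letters therefore occurred in promoters of genes that moved in both directions. These matches describe 300 bases at each start and no more distant region was searched.

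The rise of Adgrg1 changed the make-up of the adhesion receptors, compared as RPKM, that is CPM per kilobase of exon. Among the members with an exon length, Adgrg1 ranked 15 and 14 in the GSI libraries and 1 in both washout libraries. Its share of the summed adhesion receptor RPKM was 2.69% and 3.98% in GSI and 43.0% and 41.0% in washout. The summed RPKM itself was 48.3 and 49.5 in GSI and 46.0 and 45.3 in washout, and without Adgrg1 it was 47.0 and 47.6 against 26.2 and 26.7.

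Adgre5 (Cd97), a leukocyte adhesion receptor that binds CD55, was the most abundant or second most abundant member per length in the GSI libraries. It stood at 81.4 and 86.5 CPM in GSI and at 31.7 and 29.5 CPM in washout. The libraries of the conditions did not overlap, and the log2 fold change was -1.45 ± 0.10 (SE) with an adjusted p of 0.000343. In the annotation 895 of its exon bases are shared with Ddx39 on the opposite strand, which was called higher with a log2 fold change of 1.24, and the part of that overlap in the counts of either gene was not tested.

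Adgrg7 (Gpr128), an orphan adhesion receptor, had only 23 and 13 counts in GSI and 10 and 2 in washout, or 0.718 and 0.891 against 0.294 and 0.149 CPM. Its log2 fold change was -1.66 ± 0.49 (SE) with an adjusted p of 0.0292. At these counts the call was not stable, since it was lost with DESeq2 (adjusted p = 0.182) and without any single library, where adjusted p ran from 0.0928 to 0.127.

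Adgrl1 (latrophilin 1, the receptor of a spider neurotoxin) had the highest mean level per length of all members, 19.1 RPKM. Its level was 193.1 and 181.7 CPM under GSI, against 136.1 and 143.6 CPM upon washout, without overlap. The log2 fold change of -0.42 ± 0.094 (SE) passed the adjusted p (0.0111) but not the fold threshold, and it turned to 0.11 when trends with GC content and exon length were removed. Its direction therefore depends on that correction.

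Adgrg1 lies between 2 other adhesion receptors on chromosome 8, with 41312 bases from the end of Adgrg5 to its start and 3501 bases from its end to the start of Adgrg3 (Gpr97). Adgrg5 was measured at 48 and 31 counts in GSI and 35 and 13 counts in washout, which do not overlap in CPM, and its log2 fold change was -0.82 ± 0.35 (SE, adjusted p = 0.0924). Adgrg3 was measured at 0.344 and 1.30 CPM in GSI and 0.470 and 0.669 CPM in washout, with overlapping conditions and a log2 fold change of -0.42 ± 0.70 (SE, adjusted p = 0.642). Neither neighbour was called, and their values lay below 0 where that of Adgrg1 lay at 3.60.

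Of the remaining adhesion receptors, 3 were tested and not called. Adgrd1 stood at 9.25 and 9.11 CPM in GSI and 6.52 and 6.92 CPM in washout (adjusted p = 0.0702), Adgra3 at 2.16 and 2.19 against 1.47 and 2.45 CPM (0.655), and Adgrf3 at 0.687 and 0.548 against 0.382 and 0.298 CPM (0.157). Adgrb2, a receptor best known from brain, had 21 and 0 counts in GSI and 8 and 2 in washout and was not tested. By subfamily, 4 of 6 G members were tested, 1 each of the A, D, E, F and L members, and 0 of the B and V members.

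**Figure D3:**
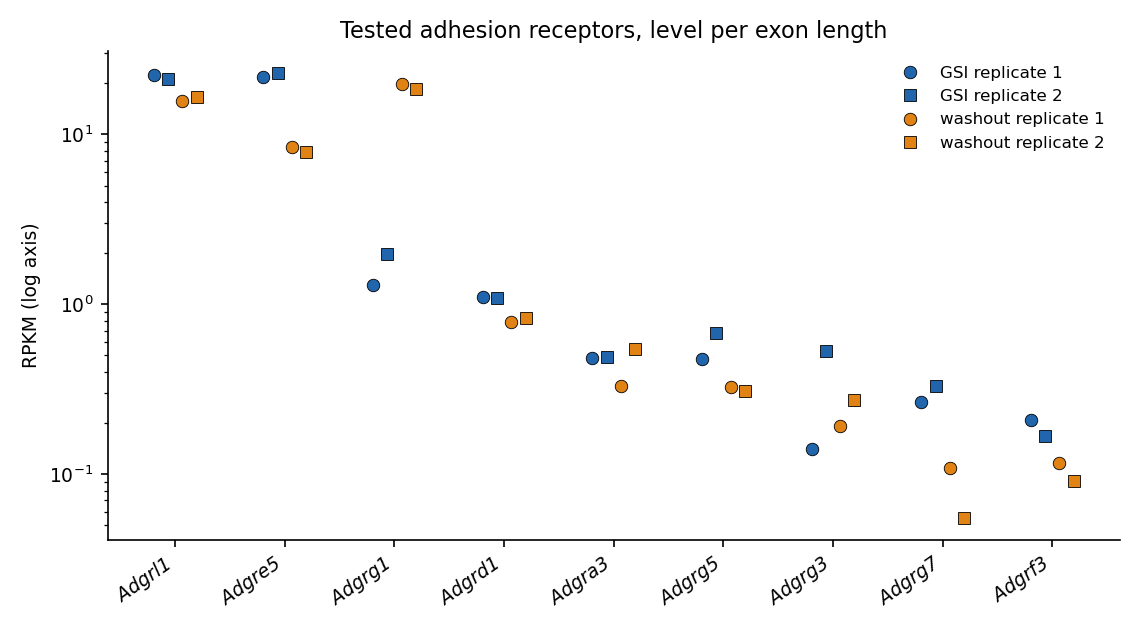
Level per exon length (RPKM, log axis) of the 9 tested adhesion receptors in each library, with circles for replicate 1, squares for replicate 2, blue for GSI and orange for washout, ordered by mean level. Adgrg1 moved from between 1.30 and 1.97 RPKM in GSI to between 18.6 and 19.8 RPKM in washout, past Adgre5, which moved the other way.

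Proton-sensing receptors respond to extracellular acidity. Gpr132 (G2a), among the 5 members with the highest mean RPKM, was measured at 29.7 and 25.3 CPM in GSI and 22.6 and 26.2 CPM in washout. Its conditions overlapped, with a log2 fold change of -0.19 ± 0.14 (SE, adjusted p = 0.308). Gpr4 was measured at 1.37 and 1.30 CPM against 1.38 and 1.41 CPM (log2 fold change 0.053 ± 0.31, SE, and -0.15 with scaling to total counts), and Gpr65 reached 4 counts at most.

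Of 15 lipid, metabolite and P2Y-like receptors only 4 were tested, and 2 of these were called lower, against 11.7% of all genes tested. Gpr171, a P2Y-like receptor known from T cells, was measured at 2.66 and 3.01 CPM in GSI and 0.587 and 0.669 CPM in washout (log2 fold change -2.18 ± 0.32, SE, adjusted p = 0.00246). Gpr174, a lymphocyte receptor for lysophosphatidylserine, was measured at 3.44 and 1.92 CPM in GSI and 0.499 and 0.149 CPM in washout (-2.84 ± 0.54, SE, adjusted p = 0.00608). Neither gene overlapped between conditions, although the counts of Gpr174 were as low as 2 in a washout library and its libraries differed from each other within both conditions. Gpr171 lies inside Med12l on the opposite strand, and Med12l was itself called lower, with a log2 fold change of -1.45.

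Gpr183 (Ebi2), an oxysterol receptor that guides lymphocytes, and Gpr18 both lie inside Ubac2 on the opposite strand. Gpr183 was measured at 1.09 and 1.23 CPM in GSI and 1.38 and 1.49 CPM in washout, with a log2 fold change of 0.31 ± 0.32 (SE, adjusted p = 0.458). Gpr18 was measured at 1.47 and 1.37 CPM against 1.06 and 1.12 CPM, with -0.40 ± 0.32 (SE, adjusted p = 0.334). Neither was called. Gpr160 had 22 and 4 counts in GSI against 9 and 4 in washout and Gpr55 had 12 and 2 against 4 and 1, too few to be tested.

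Gpr25, a relative of the lymphocyte homing receptor Gpr15 in the chemoattractant-like group, had the lowest log2 fold change of all members, -3.26 ± 0.52 (SE, adjusted p = 0.00316). Its counts were 82 and 20 in GSI and 8 and 2 in washout, or 2.56 and 1.37 against 0.235 and 0.149 CPM. Washout lay far below GSI, with 1 of its libraries under the floor. In the annotation 838 exon bases of Gpr25 are shared with Gm17543 on the opposite strand. Gm17543 has no row in the counts, and the part of the overlap was not tested. Gpr1, a chemerin receptor of the same group, was measured at 0.156 and 0.617 CPM in GSI and 0.352 and 0.893 CPM in washout. These values overlapped, and the log2 fold change of 0.75 ± 0.80 (SE, adjusted p = 0.461) became -0.16 without GSI replicate 1.

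**Figure D4:**
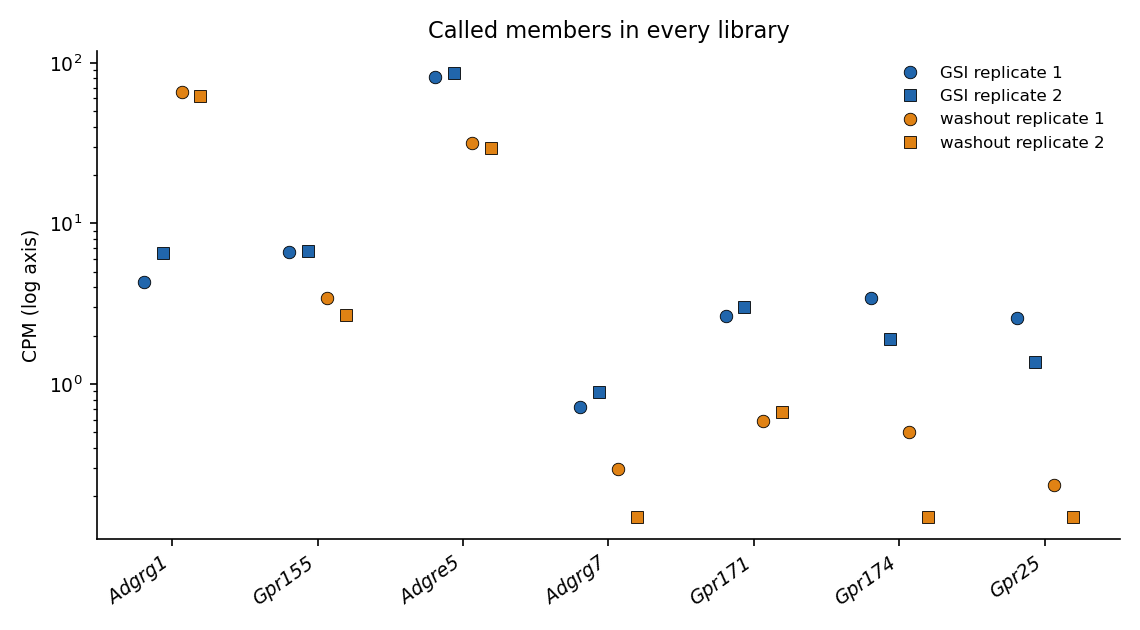
CPM (log axis) of 7 of the 8 called genes in each library, with circles for replicate 1, squares for replicate 2, blue for GSI and orange for washout, ordered by log2 fold change. Of the genes drawn, only Adgrg1 has its washout points above its GSI points, and the washout points of Adgrg7, Gpr174 and Gpr25 lie between 0.149 and 0.499 CPM.

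Members grouped here as proteins of inner membranes, several of them from Golgi or lysosome, were mostly detected, with 9 of 11 above the floor and 8 tested. Gpr155 (Lychos), a lysosomal cholesterol sensor, was called lower, at 6.65 and 6.71 CPM in GSI and 3.41 and 2.68 CPM in washout (log2 fold change -1.11 ± 0.23, SE, adjusted p = 0.00886). The call rests on a value close to the fold threshold, which fell short of it without washout replicate 2, at -0.95. Gpr155 shares 120 and 166 exon bases with Gm13703 and Gm13709 on the opposite strand, which have no row in the counts. Gpr180 was the 1 further member past the adjusted p that was higher upon washout, at 15.3 and 15.5 CPM in GSI and 24.9 and 25.0 CPM in washout (0.70 ± 0.12, SE, adjusted p = 0.00408). Its libraries were nearly equal within each condition.

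Gpr108, a Golgi protein, was the second most abundant member per length over all libraries at 16.7 RPKM, and fell short of the fold threshold at 44.1 and 42.0 CPM in GSI and 25.3 and 29.5 CPM in washout (log2 fold change -0.66 ± 0.12, SE, adjusted p = 0.00518). Its relative Gpr107 stood at 61.9 and 74.3 CPM against 39.4 and 45.4 CPM (-0.68 ± 0.13, SE, adjusted p = 0.00638), and the lysosomal Gpr137 at 553 and 292 counts against 390 and 176 counts (-0.61 ± 0.16, SE, adjusted p = 0.0183). In all 3 genes both washout libraries lay below both GSI libraries in CPM, as in 39.1% of all genes tested. In Gpr180 and Gpr89 of the same group both washout libraries lay above, as in 38.2% of all genes tested. Gpr89, the Golgi pH regulator, stood at 27.9 and 31.4 CPM against 32.4 and 33.5 CPM (0.15 ± 0.11, SE, adjusted p = 0.305). Gpr137b and Gpr137b-ps are near-identical copies between which reads could be split, and neither was called.

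Of the remaining receptors, Gpr162, an orphan, came closest to a call, at 41.2 and 47.2 CPM in GSI and 23.8 and 21.4 CPM in washout. The log2 fold change was -0.96 ± 0.12 (SE, adjusted p = 0.00152), and it ran from -0.64 with the replicate block and the offset for GC content and exon length to -1.16 with scaling to total counts. Gpr179, which anchors Rgs proteins in the retina, passed the adjusted p alone at 18.4 and 22.3 CPM against 12.7 and 13.6 CPM (-0.63 ± 0.15, SE, adjusted p = 0.0153). With the offset for GC content and exon length its value was -0.13 (adjusted p = 0.432), and without GSI replicate 2 it was -0.48 (adjusted p = 0.106). Gpr83, a receptor known from regulatory T cells, stood at 29.7 and 19.0 CPM against 18.5 and 17.6 CPM (-0.44 ± 0.22, SE, adjusted p = 0.135). The GSI libraries of Gpr83 lay apart, and its value was -0.073 without GSI replicate 1 and -0.70 (adjusted p = 0.0185) without GSI replicate 2. Gpr62 stood at 2.31 and 2.12 CPM against 1.09 and 1.41 CPM (-0.87 ± 0.31, SE, adjusted p = 0.0577), and it passed both thresholds with scaling to total counts (-1.07, adjusted p = 0.0291), where 10 members were called lower in all.

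Gpr19, Gpr21 and Gpr151 had log2 fold changes of 0.12, -0.30 and 0.18, each smaller than its standard error, and each crossed 0 when a library was left out. Gpr146 had 2 and 7 counts in GSI and 16 and 0 in washout, and Gpr153 had 11 and 3 against 27 and 5. These genes were not tested, and in Gpr146 the largest count came from 1 washout library, while the other had 0.

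Transcripts known from other blood and vessel cells were lower in the washout libraries too, although the defining markers of those cells were mostly missing. T-cell progenitor markers moved both ways, with 2 of 16 called higher and 2, Gata3 and Cd2, called lower. Either count was 12.5% of the markers, against 7.74% called higher and 11.7% called lower of all genes tested. By the adjusted p alone 4 were higher (25%, against 27.0% of all genes tested) and 6 lower (37.5%, against 25.4%). The summed level of 10 mast cell and basophil markers was 175.9 and 77.5 CPM in GSI and 9.37 and 2.23 CPM in washout, nearly all from Cpa3, with 8 of the 10 at or under the floor and Fcer1a and Ms4a2 at 0. Of 6 NK cell markers, 3 were at or under the floor, and the sum of 2605 and 1803 CPM against 387.8 and 307.9 CPM came almost wholly from Gzma. Of 12 myeloid markers, 8 were at or under the floor, with Lyz2 and Cybb at 0, and the sum was 53.5 and 41.7 CPM against 13.1 and 12.7 CPM. Itgam made up 48.7 and 37.9 CPM of it in GSI and 5.37 and 4.76 CPM in washout. Cd68 was higher upon washout by the adjusted p alone (log2 fold change 0.98). The sums of 9 B cell markers (9.50 and 6.58 against 3.41 and 2.31 CPM, with 5 at or under the floor and Pax5 and Ms4a1 at 0), of 10 stromal and endothelial markers (268.7 and 218.9 against 95 and 101.0 CPM, with 6 at or under the floor and Kdr at 0) and of 6 neuronal markers (11.1 and 10.7 against 5.43 and 5.13 CPM, with 2 at or under the floor) were lower as well. Blnk gave most of the B cell sum, Pecam1 of the stromal and endothelial sum and Tubb3 of the neuronal sum. The part of these marker transcripts in the falls of Adgre5, Gpr25, Gpr171 and Gpr174 was not tested.

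Of the genes that carry GPCR signals inside the cell, 76 were in the table, 58 above the floor and 47 tested, and 3 were called higher (6.38% of those tested, against 7.74% of all genes tested) and 9 lower (19.1%, against 11.7%). With the adjusted p alone 5 were higher (10.6%, against 27.0%) and 16 lower (34.0%, against 25.4%), and the median log2 fold change was -0.28, against -0.0096 over all genes tested. The 10 tested Gα subunits had 1 rise, of Gnat2 (0.531 and 0.274 CPM in GSI against 1.17 and 1.19 CPM in washout, log2 fold change 1.43 ± 0.43, SE, adjusted p = 0.0308), and 2 falls, with the lowest value for Gnaz (3.44 and 1.16 against 0.764 and 0.521 CPM, -1.84 ± 0.57, SE, adjusted p = 0.0355). Abundant subunits were not called, for example Gnai2, which inhibits adenylyl cyclase, at -0.25 ± 0.11 (SE) and Gnas, which activates it, at -0.15 ± 0.11 (SE).

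Among 13 tested Gβ and Gγ subunits, Gng13 was called higher (1.81 and 1.92 against 4.96 and 5.13 CPM, log2 fold change 1.44 ± 0.25, SE, adjusted p = 0.00414). Gnb5, the partner of the Rgs9 family, was called lower (3.62 and 1.92 against 1.20 and 0.669 CPM, -1.51 ± 0.44, SE, adjusted p = 0.0296). Each was 7.69% of those tested, against 7.74% called higher and 11.7% called lower of all genes tested. Of the 9 tested receptor kinases, arrestins and chaperones, 1 passed the adjusted p as higher and 3 as lower without reaching the fold threshold. These were 11.1% and 33.3%, against 27.0% and 25.4% of all genes tested. Among those lower was Arrb1, an arrestin that ends receptor signaling (-0.94 ± 0.093, SE, adjusted p = 0.00065).

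Rgs proteins, which speed the shut-off of Gα subunits, had 1 rise and 4 falls among 10 tested, against 7.74% higher and 11.7% lower of all genes tested. Rgs8 was called higher (1.87 and 2.40 against 3.76 and 5.21 CPM, log2 fold change 1.07 ± 0.30, SE, adjusted p = 0.0255), and the lowest value was that of Rgs9 (2.09 and 1.44 against 0.441 and 0.223 CPM, -2.29 ± 0.45, SE, adjusted p = 0.00674). Of 5 tested adenylyl cyclases, which make cyclic AMP, 2 were called lower and 4 passed the adjusted p as lower, against 11.7% and 25.4% of all genes tested. Adcy9 stood at 43.7 and 44.3 CPM in GSI and 10.6 and 13.0 CPM in washout (-1.91 ± 0.14, SE, adjusted p = 0.000345), and Adcy1 at 72.1 and 91.0 against 31.2 and 37.2 CPM (-1.26 ± 0.15, SE, adjusted p = 0.00117). These counts moved with the settings, and 1 higher and 15 lower were called with scaling to total counts, 1 higher and 5 lower without GSI replicate 1, and 1 higher and 7 lower without washout replicate 2.

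**Figure D5:**
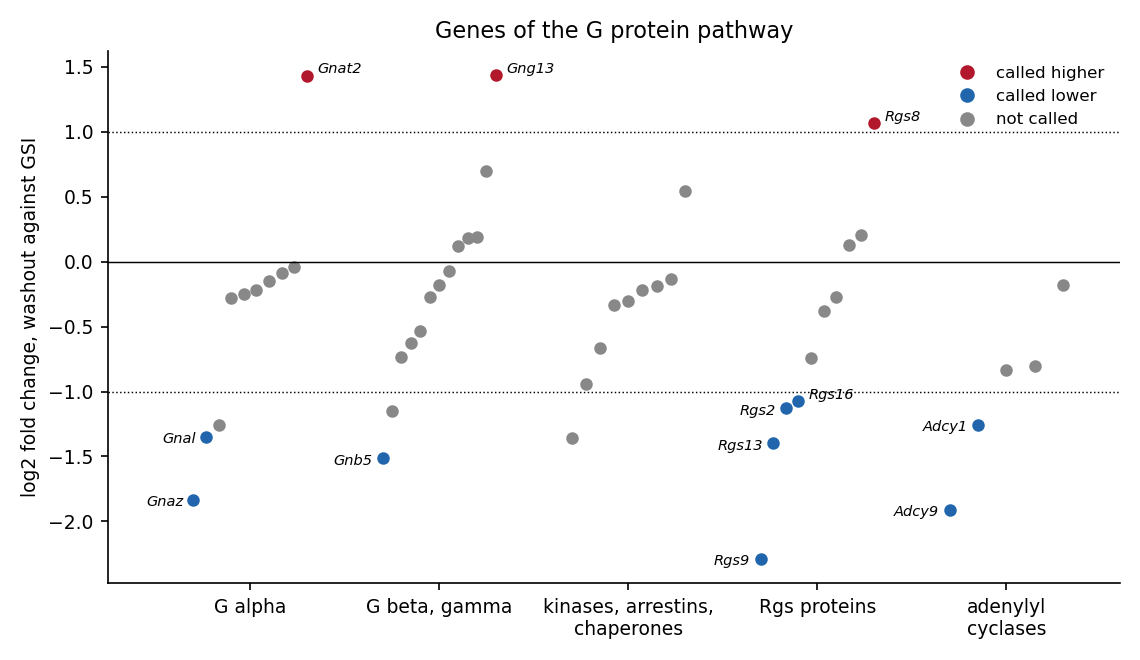
Log2 fold change of washout against GSI (y axis) of the 47 tested G protein pathway genes in 5 lists (x axis), 1 point per gene, red for genes called higher, blue for genes called lower and grey for the others, with called genes named. Dotted lines mark a log2 fold change of 1 in either direction. The 5 adenylyl cyclases all lie below 0, with Adcy9 lowest at -1.91.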

How the data were processed

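RNA-Seq was measured in 4 libraries, 2 of GSI and 2 of washout, grouped by their labels. The authors deposited whole-number counts for each gene and library, without normalization. Before that, reads had been trimmed by the authors (trimGalore), mapped with HISAT2 (version 2.2.1 per the submitters' processing notes) to the mm9 genome with 1 alignment per read, and counted with summarizeOverlaps over an iGenomes annotation. The kit was a stranded total RNA kit, and the strand setting and overlap mode of the counting are not given in the sources used here, so reads of overlapping genes may be shared between them.

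Counts of all genes passing filterByExpr were fitted with edgeR 4.0.16 in R 4.3.3 (TMM factors, quasi-likelihood test, no covariates), and p-values were adjusted over all 12266 genes by the Benjamini-Hochberg method. Called genes passed an adjusted p of 0.05 and differed by more than 1 on the log2 scale. The standard error was obtained from the fit as the size of the log2 fold change over the root of F. CPM used total counts times TMM factors, and RPKM divided CPM by the union of exons in GENCODE vM1 (mm9), which matched 98 of 101 members, 27 by a synonym. The floor was 3 counts and covers counting error only, and reads carry no molecular identifiers.

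Members and lists were chosen with earlier results of these data known. Named were the called members, the 5 with the highest mean RPKM, those with more than 10 counts that were not tested, the tested member with the highest and lowest log2 fold change in each role group, and the called gene with the highest and lowest value in each pathway list. Of the members chosen by this rule, 2 are not reported here. Other members and pathway genes were named after their values were seen. Promoters are RefSeq entries of GRCm38.p6, a build other than that of the counts. Adgre5 and Gpr171 were not among those with an entry.

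Alternatives were DESeq2 1.42.0, its size factors (RLE) or total counts in edgeR, other filters, the adjusted p alone, glmTreat, the replicate number as a block, an offset for GC content and exon length, and leaving out each library, where the lone library of a condition is assumed to vary like the others. The scripts were tested on simulated data.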

Additional observations from a re-analysis of the deposited data

How the results depend on the processing

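Adgrg1 and Adgre5 kept their calls in all 12 refits, with log2 fold changes from 3.27 to 3.89 and from -1.65 to -1.32. Gpr25, Gpr171 and Gpr174 kept theirs in all 11 refits that tested them. These refits do not include glmTreat, with which fewer members were called lower. The number of members above the floor ran from 46 to 49 with a library left out. Members called lower numbered 10 with scaling to total counts, 2 with at least 10 counts in every library, where most were not tested, 4 with glmTreat, 13 with the adjusted p alone (2 higher) and, in an alternative chosen after seeing the data, 3 without members that share exon bases with another gene. Leaving out a library gave 6 to 7 members lower and 1 higher. Pathway genes called higher and lower numbered 1 and 15 with scaling to total counts, 5 and 16 with the adjusted p alone, 0 and 1 with glmTreat, and 1 to 2 and 5 to 9 with a library left out. The median log2 fold change of members was -0.64 with scaling to total counts, -0.61 with no filter beyond 1 count, -0.34 with the GC content and exon length offset, -0.33 with that offset and the replicate block, and from -0.58 to -0.45 with a library left out. The replicate block alone gave 1 member higher and 7 lower, and Gpr62 and Gpr83 then passed the adjusted p (0.0113 and 0.00369). Same-numbered libraries deviated together (r = 0.475 across genes), but nothing in the labels ties the numbers to a shared culture. Some log2 fold changes turned sign: Adgrl1 with the offset, without and with the block (0.11 in both), Gpr151 with scaling to total counts (-0.0199) and with block and offset (-0.0102), Gpr19 with scaling to total counts (-0.0773), and Gpr4 with scaling to total counts (-0.15). With a library left out, Gpr1 ran from -0.16 (without GSI replicate 1) to 1.81, Gpr151 from -0.0802 (without washout replicate 2) to 0.53, Gpr19 from -0.12 (without GSI replicate 1) to 0.37, and Gpr21 from -1.10 to 0.0572, above 0 without GSI replicate 2 or washout replicate 2. Apart from scaling, the filters and the libraries left out, the cause of these moves was not tested. At the depth of these libraries, 21 members had counts in some library but never more than 3, and 31 were at 0 in all. Lower levels were not detectable.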
